A study of Mus musculus with 2 samples.

Results

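The neurotrophins and their receptors were described across the sorted cell populations of newborn mouse tongue as a set of 8 genes: the ligands *Bdnf*, *Ntf3*, *Ntf5* and *Gdnf*, and the receptors *Ngfr*, *Ntrk2*, *Ntrk3* and *Gfra1*. They were chosen by name, as neurotrophic genes relevant to gustatory innervation, and all 8 were found among the 21590 genes compared. The data are 2 RNAseq libraries, 1 of cells with bright SOX2-GFP fluorescence (GFP-high) and 1 of cells with dim fluorescence (GFP-low). Both came from P0 pups (postnatal day 0) carrying the Sox2GFP reporter, in which green fluorescent protein reports *Sox2* expression, without any other treatment. Lingual epithelium pooled from many pups was dissociated, and about 100000 cells per population were collected by FACS from bright and dim bins of a continuous range of fluorescence. By the study's staining, the reporter is brightest in taste buds and the cells around them, weaker in fungiform papillae and weakest in basal cells of non-taste epithelium. *Sox2* itself had 112.3 FPKM in GFP-high and 59.0 FPKM in GFP-low cells.

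Neurotrophins are secreted growth factors that keep sensory neurons alive and guide their fibers to a target. Each binds a preferred Trk receptor tyrosine kinase: BDNF and NT-4 (the product of *Ntf5*, now named *Ntf4*) bind TrkB (*Ntrk2*), and NT-3 (*Ntf3*) binds TrkC (*Ntrk3*). All of them also bind the p75 receptor (*Ngfr*), which Schwann cells and some basal keratinocytes carry. GDNF belongs to another family, which binds a GPI-anchored GFRα receptor, GFRα1 (*Gfra1*) in its case, together with the kinase RET. In the tongue, BDNF made by the taste epithelium attracts gustatory fibers to taste buds, and NT-4 and NT-3 support gustatory and somatosensory fibers of the papillae.

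Expression is given as FPKM, fragments scaled to transcript length and to the mapped total of the library, so levels can be compared between genes. A gene was called higher in a population when it had at least 5 FPKM there and at least 1.5 times the FPKM of the other population, the study's rule as its results state it. Its methods can be read as asking for 5 FPKM in both populations, and calls that this would end are named below. With 1 library per population there is no replicate check, no test was possible, and no p-value is given. The low values pointed to about 27250000 mapped reads in the GFP-high and 35250000 in the GFP-low library, against roughly 75000000 reads per sample in the labels. The intervals below are exact (Clopper-Pearson) 95% binomial intervals for the reads that such depths give on 1 kb of transcript. They cover counting error only and say nothing of the spread between animals or sorts. For a transcript longer than 1 kb they are wider than its own reads would give. In RNA from sorted pools, more cells of a type cannot be told apart from more RNA per cell.

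The called ligands and the receptors divided between the populations. Of the 8 genes, 2 were called higher in GFP-high cells (*Ntf3* and *Bdnf*), where 4.72% of all genes were called in that direction. Another 4 were called higher in GFP-low cells (*Ntrk2*, *Ngfr*, *Gfra1* and *Ntrk3*), where 4.44% of all genes were. The remaining *Ntf5* and *Gdnf* were not called in either direction. All 4 receptors of the set were thus higher in GFP-low cells, and both called ligands were higher in GFP-high cells. The median difference of the 8 genes on the log2(FPKM + 1) scale was -0.98 (GFP-high minus GFP-low), against -0.02 for the 17283 genes above 0 in at least 1 library. The genes were chosen with earlier results of these libraries known, so these counts describe the set.

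**Figure D1:**
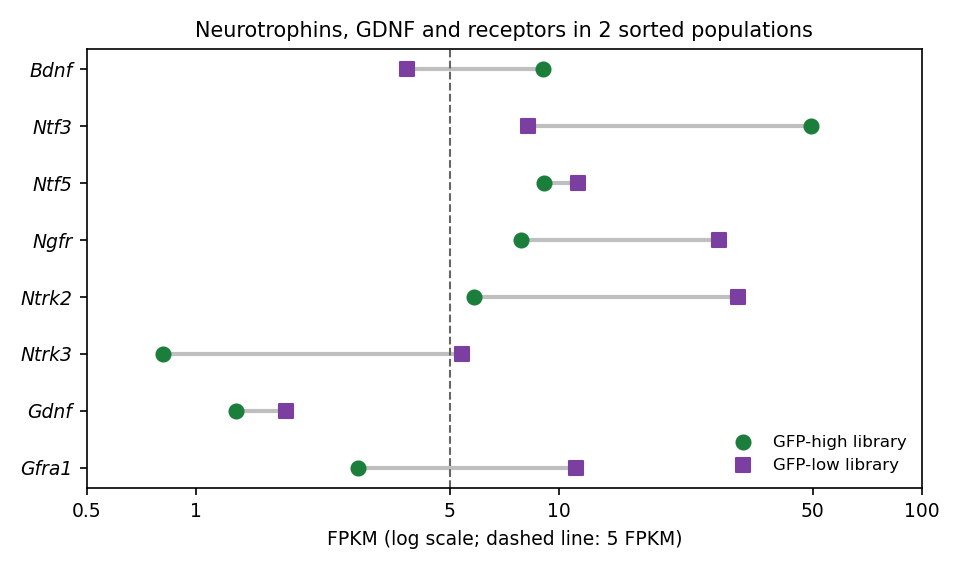
FPKM of each of the 8 genes (log axis) in the GFP-high library (circles) and the GFP-low library (squares), 1 library each, with a dashed line at 5 FPKM. *Ntf3* and *Bdnf* lie to the right in GFP-high cells (49.5 and 9.06 FPKM), while the 4 receptors lie to the right in GFP-low cells (5.40 to 31.1 FPKM).

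*Ntf3*, which encodes neurotrophin-3, had the highest level of the 8 genes in GFP-high cells, 49.5 FPKM, and 8.22 FPKM in GFP-low cells. This was a 6.02-fold difference, with a counting interval of 5.29 to 6.85. *Ntf3* was above 76.6% of the genes detected in GFP-high cells and above 43.2% of those detected in GFP-low cells. By fold it was at rank 52 of the 1020 genes called higher in GFP-high cells. Within GFP-high cells its level was 5.46 times that of *Bdnf* and 5.44 times that of *Ntf5*. In GFP-low cells it was 2.16 times the level of *Bdnf* and lay under that of *Ntf5* (8.22 against 11.3 FPKM).

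The gene (ENSMUSG00000049107) lies on chromosome 6 at 126101412–126166910 of mm10, on the minus strand. RefSeq gives it 2 starts, and the gene-level FPKM does not say which was used. The 250 bases before each are shown because *Ntf3* has the largest GFP-high fold of the set. They were searched on both strands for the SOX core ACAAT, since the cells were sorted on *Sox2* brightness, and for the forkhead core TGTTTA, since FOXA2 and FOXA1 are the other factors the study follows. Capitals mark a match, here and below, and neither *Ntf3* stretch has one.
Ntf3, upstream start, chr6:126166745-126166994, minus strand: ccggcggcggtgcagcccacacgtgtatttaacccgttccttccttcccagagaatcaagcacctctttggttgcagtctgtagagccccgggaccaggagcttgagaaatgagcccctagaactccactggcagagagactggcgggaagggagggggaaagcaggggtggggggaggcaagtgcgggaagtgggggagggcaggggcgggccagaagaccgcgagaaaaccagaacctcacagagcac
Ntf3, downstream start, chr6:126164961-126165210, minus strand: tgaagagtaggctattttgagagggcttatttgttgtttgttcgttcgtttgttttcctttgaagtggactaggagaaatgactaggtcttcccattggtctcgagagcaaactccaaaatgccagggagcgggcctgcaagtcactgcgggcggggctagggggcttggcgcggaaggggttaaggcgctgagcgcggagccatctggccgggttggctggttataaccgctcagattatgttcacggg
Among all 32851 RefSeq stretches of this length (GRCm38.p6), 27.7% hold the SOX core and 12.0% the forkhead core. The *Ntf3* stretches hold 11 and 14 CpG dinucleotides, against a median of 6 over all stretches.

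*Bdnf*, the brain-derived neurotrophic factor gene, had 9.06 FPKM in GFP-high and 3.81 FPKM in GFP-low cells. The GFP-high level was 2.38 times the GFP-low level, with a counting interval of 1.92 to 2.97. Its call depends on the FPKM minimum: it is lost when 10 FPKM, or 5 FPKM in both populations, is required. *Bdnf* (ENSMUSG00000048482; chromosome 2, 109674700–109727007, plus strand) has 11 coding transcripts in GENCODE M21, which differ mostly in their leading exons and encode proteins of 249 to 289 residues. Of the 7 RefSeq starts, 2 are preceded by a SOX core and 1 by a forkhead core within 250 bases, against 27.7% and 12.0% of all stretches. The antisense gene *Gm45346* shares 896 bases of exon with *Bdnf*. The libraries were stranded, but whether the FPKM were computed by strand is not given in the sources used here, so reads of the antisense gene cannot be separated.

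*Ntf5* differed little between the populations. This gene, which encodes neurotrophin-4 (ENSMUSG00000074121; chromosome 7, 45413695–45417179), had 9.09 FPKM in GFP-high and 11.3 FPKM in GFP-low cells. The GFP-low level was 1.24 times higher, with a counting interval of 1.06 to 1.46, which stays under the 1.5-fold rule. In GFP-high cells *Ntf5* and *Bdnf* were at nearly the same level (9.09 and 9.06 FPKM), while in GFP-low cells *Ntf5* was above *Bdnf* (11.3 against 3.81 FPKM).

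Summed over the 4 ligands of the set, expression was 68.9 FPKM in GFP-high and 25.1 FPKM in GFP-low cells, 2.74 times higher in GFP-high cells. *Ntf3* supplied most of the GFP-high sum.

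The neurotrophin receptors ran the other way. *Ntrk2*, which encodes TrkB, the receptor of BDNF and neurotrophin-4, had the highest level of the 8 genes in GFP-low cells. Its FPKM was 31.1 in GFP-low and 5.85 in GFP-high cells, 5.31 times higher in GFP-low cells, with a counting interval of 4.50 to 6.33. *Ntrk2* (ENSMUSG00000055254; chromosome 13, 58806569–59133970) has 7 coding transcripts in GENCODE M21, whose proteins run from 466 to 821 residues. The longest include the kinase domain and the shorter ones end soon after the membrane. The deposited value is summed over transcripts, so signaling and truncated receptors cannot be told apart.

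*Ngfr*, the gene for the shared p75 receptor, had 27.7 FPKM in GFP-low and 7.86 FPKM in GFP-high cells. It was 3.52 times higher in GFP-low cells, with a counting interval of 3.04 to 4.11. *Ngfr* (ENSMUSG00000000120) lies on chromosome 11 at 95568818–95587735 and has 1 annotated transcript, so its FPKM concerns a single form. Both *Ngfr* and *Ntrk2* passed 5 FPKM in each population, and were the only receptors of the set to do so. Their order differed between the populations: *Ngfr* was at 1.34 times the level of *Ntrk2* in GFP-high cells and at 0.891 times in GFP-low cells.

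*Ntrk3*, which encodes TrkC, the receptor of neurotrophin-3, had 5.40 FPKM in GFP-low and 0.81 FPKM in GFP-high cells. The GFP-low level was 6.67 times higher, the largest fold among the 8 genes, with a wide counting interval of 4.28 to 10.9. Its GFP-low level is just over the 5 FPKM of the rule, and the call is lost at a minimum of 10 FPKM. On the log2(FPKM + 1) scale the difference shrinks to -1.82 from a log2 ratio of -2.74, since 1 FPKM weighs heavily on the GFP-high value. *Ntrk3* (ENSMUSG00000059146; chromosome 7, 78175959–78738012) also has coding transcripts with and without the kinase domain.

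*Gfra1*, which encodes the GDNF co-receptor GFRα1, was in the same direction as *Ntrk2* and *Ntrk3*. It had 11.1 FPKM in GFP-low and 2.80 FPKM in GFP-high cells, 3.97 times higher in GFP-low cells with a counting interval of 3.11 to 5.17. With 2.80 FPKM in GFP-high cells it would not be called if 5 FPKM were required in both, and neither would *Ntrk3*. *Gfra1* (ENSMUSG00000025089; chromosome 19, 58235604–58455909) shares 416 bases of exon with the antisense gene *Gm16277*, with the same limit as for *Bdnf*. The sequences before the starts of *Ntrk2*, *Ngfr* and *Gfra1* are shown because these receptor genes were higher in GFP-low cells together. *Ntrk3* and *Ntf5* had no entry in the promoter table used.
Ntrk2, chr13:58806319-58806568, plus strand: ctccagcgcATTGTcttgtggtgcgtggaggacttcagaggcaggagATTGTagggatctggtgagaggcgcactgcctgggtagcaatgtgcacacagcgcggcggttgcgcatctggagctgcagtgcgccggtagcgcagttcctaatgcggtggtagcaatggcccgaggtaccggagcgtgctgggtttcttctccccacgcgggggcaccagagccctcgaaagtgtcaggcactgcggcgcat
Ngfr, chr11:95587699-95587948, minus strand: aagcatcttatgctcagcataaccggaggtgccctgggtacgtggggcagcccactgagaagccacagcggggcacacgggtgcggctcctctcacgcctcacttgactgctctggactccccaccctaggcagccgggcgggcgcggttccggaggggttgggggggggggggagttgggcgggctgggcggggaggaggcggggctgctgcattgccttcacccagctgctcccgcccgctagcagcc
Gfra1, chr19:58455399-58455648, minus strand: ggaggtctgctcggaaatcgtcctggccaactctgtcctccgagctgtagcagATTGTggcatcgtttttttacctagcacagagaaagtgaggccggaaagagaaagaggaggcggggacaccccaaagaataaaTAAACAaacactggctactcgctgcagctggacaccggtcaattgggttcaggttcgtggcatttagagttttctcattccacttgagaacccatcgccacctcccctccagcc
The *Ntrk2* stretch holds 2 SOX cores and no forkhead core, the *Ngfr* stretch neither, and the *Gfra1* stretch 1 of each, none of them overlapping. Over the 14 starts of the 6 matched members, 5 had a SOX core and 3 a forkhead core, against 27.7% and 12.0% of all stretches. Of these starts 7 belong to *Bdnf*, so the counts are not of separate genes. A match is only a run of letters, and no binding was measured in these libraries. The CpG counts were 19 for *Ntrk2*, 16 for *Ngfr* and 10 for *Gfra1*, all above the median of 6.

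*Gdnf*, the ligand of GFRα1, had the lowest level of the 8 genes in GFP-low cells and the lowest but one in GFP-high cells, at 1.77 and 1.29 FPKM. Neither reached 5 FPKM. The GFP-low level was 1.37 times higher, under the 1.5-fold rule. The counting interval of 0.891 to 2.14 includes 1, but it rests on the reads for 1 kb of transcript. The annotated transcript has 3674 nt and would give more reads, so this interval does not settle whether the levels differ. *Gdnf* (ENSMUSG00000022144) is on chromosome 15 at 7810846–7837575. Summed over the 4 receptors of the set, expression was 17.3 FPKM in GFP-high and 75.3 FPKM in GFP-low cells, 4.35 times higher in GFP-low cells.

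**Figure D2:**
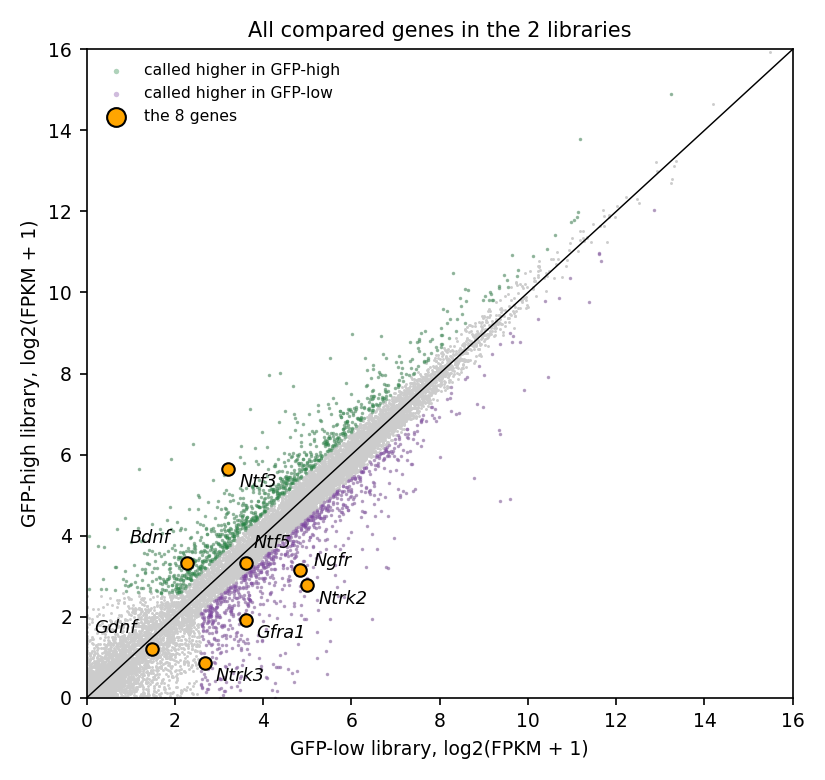
Level of every compared gene in the GFP-low library (x axis) and the GFP-high library (y axis) as log2(FPKM + 1), with genes called higher in GFP-high and GFP-low cells in green and purple, uncalled genes in grey, the 8 genes as orange circles and the line of equal levels in black. *Ntf3* stands farthest above the line of the 8, at a difference of 2.45, and *Ntrk2* farthest below it, at -2.23.

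Set side by side within each library, ligand and receptor levels were in different proportions. *Ntf3* was at 61.1 times the level of *Ntrk3* in GFP-high cells and at 1.52 times in GFP-low cells. *Bdnf* was at 1.55 times the level of *Ntrk2* in GFP-high cells, whereas in GFP-low cells *Ntrk2* was at 8.15 times the level of *Bdnf*. For *Ntf5*, the other TrkB ligand, the GFP-high ratio to *Ntrk2* was also 1.55, and in GFP-low cells *Ntrk2* was at 2.75 times *Ntf5*. *Gfra1* exceeded *Gdnf* in both, by 2.17 times in GFP-high and 6.28 times in GFP-low cells. These are ratios of transcript levels and not of protein.

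Among the other GDNF family receptor genes, 2 had larger folds than any of the 8 genes. *Gfra3*, which encodes the receptor of artemin, had 18.4 FPKM in GFP-low and 0.28 FPKM in GFP-high cells, 65.6 times higher in GFP-low cells. With about 8 reads on 1 kb of transcript in GFP-high cells, its counting interval was wide, 31.6 to 145.7. *Gfra2*, the neurturin receptor gene, had 14.4 FPKM in GFP-low and 0.73 FPKM in GFP-high cells, a 19.8-fold difference with a counting interval of 12.6 to 32.5. *Ncam1*, whose product can also serve as a GDNF receptor, passed the rule narrowly at 1.54-fold (11.8 against 7.64 FPKM). With *Gfra1*, 4 of the 6 GDNF family receptor genes were called higher in GFP-low cells. Of all genes 4.44% were called in that direction, and 8.90% of those with at least 5 FPKM in a population. *Ret*, the kinase that the GFRα receptors share, ran the other way, with 5.03 FPKM in GFP-high and 2.23 FPKM in GFP-low cells. It was called higher in GFP-high cells at 2.26-fold, but it is at the edge of the 5 FPKM rule. *Gfra1* was thus at 4.99 times the level of *Ret* in GFP-low cells and at 0.557 times in GFP-high cells. *Gfra4* was also numerically higher in GFP-high cells (4.0 against 3.04 FPKM), but it was under 5 FPKM in both and was not called.

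Of the GDNF family ligands, *Artn*, the artemin gene, was called higher in GFP-high cells, with 27.1 FPKM against 10.7 FPKM in GFP-low cells, a 2.53-fold difference. *Nrtn*, the neurturin gene, had 8.34 and 9.51 FPKM and was not called, and *Pspn* was at 1.02 FPKM or less. *Artn* and its receptor gene *Gfra3* therefore had their higher levels in opposite populations, as did *Ntf3* and *Ntrk3*.

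The genes that process neurotrophins and carry their signal were present at similar levels in both populations. None of 8 genes of pro-neurotrophin processing was called in either direction. Among them *Furin*, a protease that cleaves pro-neurotrophins, had 68.9 FPKM in GFP-high and 99.1 FPKM in GFP-low cells, and on a scale where each library is divided by its FPKM sum it was called higher in GFP-low cells. Of 15 adaptors of Trk and Ret signaling, 1 was called, *Dok4*, higher in GFP-low cells (34.0 against 21.7 FPKM). *Shc1*, *Plcg1* and *Ptpn11*, which link activated Trk receptors to their pathways, were between 62.9 and 92.5 FPKM in both libraries. Of 8 partners of p75, 2 were called higher in GFP-high cells: *Ripk2* (12.5 against 6.10 FPKM), a kinase recruited to the death domain of p75, and *Rtn4r* (8.58 against 4.92 FPKM), the Nogo receptor. Of the sortilin family, which binds pro-neurotrophins, *Sort1* had 60.8 and 59.1 FPKM and *Sorcs2* was called higher in GFP-high cells at 1.55-fold (13.8 against 8.93 FPKM). Over all 62 pathway genes outside the 8, 6 were called higher in GFP-high against 5 in GFP-low cells, 9.68% and 8.06%, against 4.72% and 4.44% of all genes. Of the 62, 44 had at least 5 FPKM in a population, and among all genes that did, 9.48% and 8.90% were called. Their median difference on the log2(FPKM + 1) scale was -0.02, the same as over all genes.

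**Figure D3:**
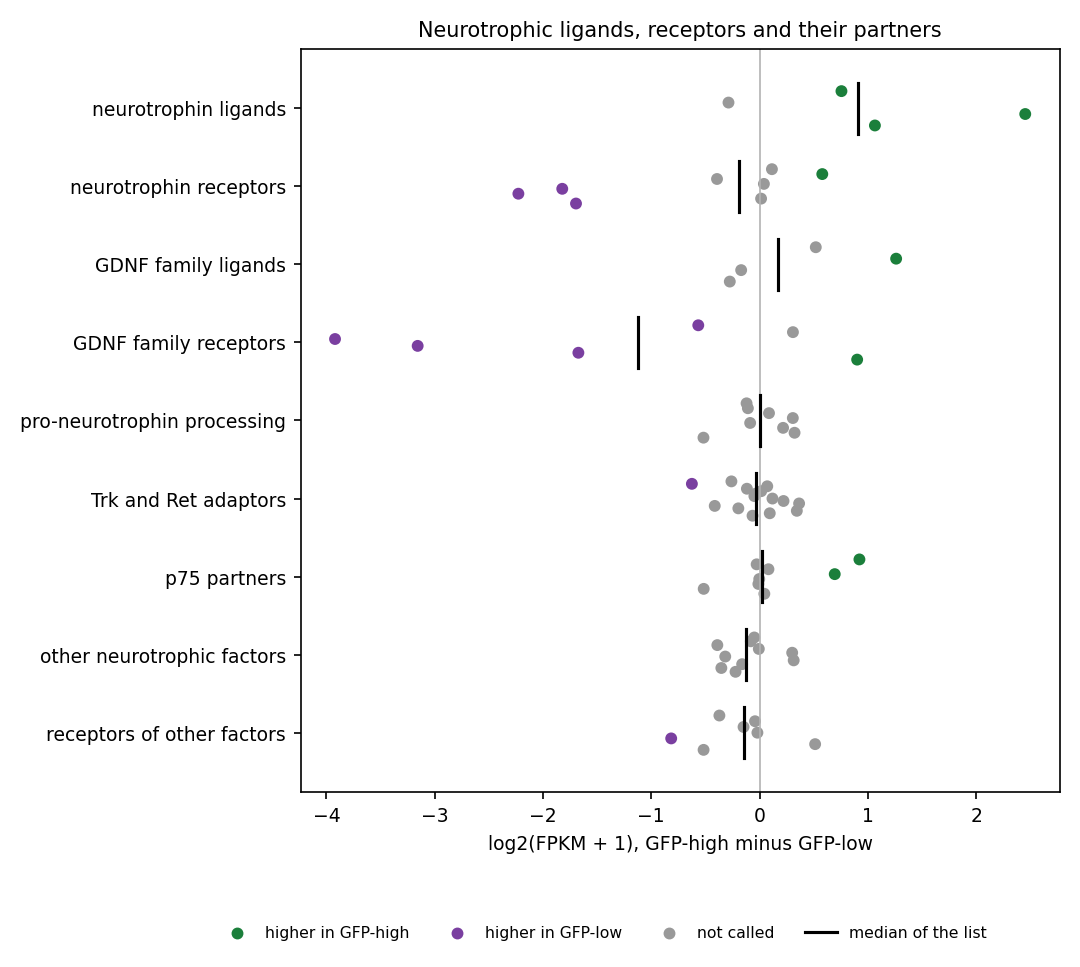
Difference in log2(FPKM + 1), GFP-high minus GFP-low, for each gene of 9 lists of neurotrophic ligands, receptors and partners, colored by call, with a black line at each list's median. GDNF family receptors have a median of -1.12, while processing genes and adaptors lie around 0.

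Markers of other cell types were read in the same libraries. Epithelial keratins were abundant in both, with *Krt5* at 9667.2 FPKM in GFP-high and 10421.6 FPKM in GFP-low cells. Of 10 Schwann lineage markers, 7 were called higher in GFP-low and none in GFP-high cells, and their summed level was 335.6 FPKM in GFP-low and 90.7 FPKM in GFP-high cells. Without *Erbb3*, which had 60.3 FPKM in GFP-high against 66.9 in GFP-low cells, the sums were 268.7 and 30.5 FPKM. *Sox10*, the transcription factor that defines this lineage, had 42.7 FPKM in GFP-low and 0.51 FPKM in GFP-high cells, and no marker of the list was at 0. Of 10 fibroblast markers, 6 were called higher in GFP-low and none in GFP-high cells, with sums of 2257.3 and 455.3 FPKM. Among the uncalled, *Twist2* ran the other way (2.27 FPKM in GFP-high against 0.50 in GFP-low cells). *Pdgfra* was nearly equal (1.42 and 1.46 FPKM). These lists were higher in the same population as the receptors *Ntrk2*, *Ngfr*, *Ntrk3*, *Gfra1*, *Gfra2* and *Gfra3*, and their part in those differences was not tested.

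Taste bud markers were higher in the same population as the called ligands. Of 7 such genes, 6 were called higher in GFP-high and none in GFP-low cells, against 4.72% and 4.44% of all genes. Their sums were 325.0 FPKM in GFP-high and 158.6 FPKM in GFP-low cells, and none was at 0. Among all genes with at least 5 FPKM in a population, 9.48% and 8.90% were called. Of 6 general epithelial markers, 3 were called higher in GFP-high and none in GFP-low cells, with sums of 1309.4 and 947.9 FPKM. Their part in the levels of *Ntf3*, *Bdnf* and *Artn* was not tested. All 7 basal keratinocyte markers had their higher level in GFP-low cells, and 1 of them was called. The receptors *Ntrk2*, *Ngfr*, *Ntrk3*, *Gfra1*, *Gfra2* and *Gfra3* also had their higher level in GFP-low cells. The study counts *Gfra2* among epithelial markers of the GFP-low population. The part of the basal keratinocyte markers in the receptor levels was not tested. Of 6 endothelial and mural markers, 1 was called, *Pecam1*, higher in GFP-high cells (5.31 against 2.38 FPKM). *Cdh5* and *Kdr* were also higher in GFP-high cells, and *Tek*, *Rgs5* and *Cspg4* in GFP-low cells. The summed level was 1.13 times higher in GFP-low cells, and *Cspg4* supplied most of it (39.3 FPKM in GFP-low and 30.5 in GFP-high cells). Neuronal transcripts were mostly low. Of 11 neuronal markers in the table, 9 were at 1.42 FPKM or less in both libraries. The other two were *Stmn2* (10.4 against 2.22 FPKM, higher in GFP-high cells) and *Isl1* (74.3 against 11.7 FPKM, higher in GFP-low cells), neither of which is restricted to neurons.

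**Figure D4:**
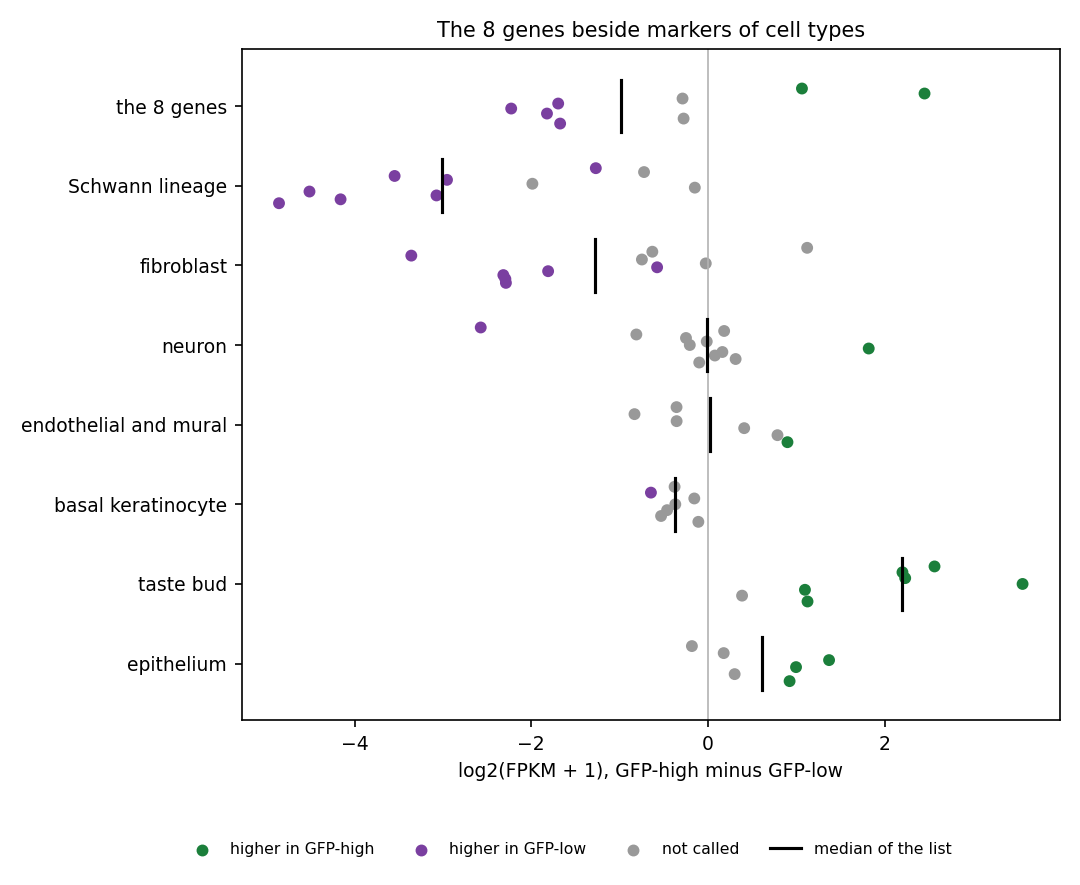
Difference in log2(FPKM + 1), GFP-high minus GFP-low, of the 8 genes and of the members of 7 marker lists, colored by call, with a black line at each list's median. The medians are -3.01 for Schwann lineage markers, -1.28 for fibroblast markers and 2.2 for taste bud markers, and the 8 genes span -2.23 to 2.45.

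The genes nearest to each member by level were found over the whole table, by the distance between log2(FPKM + 1) values of the libraries. This measure rests on 2 libraries, so it places genes at the same levels and says nothing of shared control. Nearest to *Bdnf* were *Osbpl10* (8.98 FPKM in GFP-high against 3.84 in GFP-low cells) and *Fam132b*. For *Ntf3*, which few genes resembled, the nearest reported here was *Sectm1b* (43.8 and 7.62 FPKM), at a distance of 0.20. *Ngfr* lay closest to *Crnn* and *Defb3*, which encode a protein of squamous epithelium and an antimicrobial peptide, and *Ntrk2* to *Metrn* and *Rptn*, of which *Metrn* encodes a neurotrophic factor of glial cells and *Rptn* a protein of the cornified layer. *Ntrk3* was nearest to *Cdh2*, the N-cadherin gene (0.86 and 5.52 FPKM), and *Wipf1*. *Gfra1* was nearest to *Thbs2*, which encodes the matrix protein thrombospondin-2, and *Map6*. *Ntf5* had *Dsel* and *Gltscr1l* beside it, all at distances of 0.014 or less.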

How the data were processed

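Lingual epithelial cells of P0 Sox2GFP pups were separated by reporter brightness, and 1 library per population was sequenced with single-end reads of 50 nt. Per the methods and the submitters' processing notes, the authors trimmed reads with Trimmomatic 0.36, mapped them to mm10 with GSNAP, obtained FPKM with Cufflinks 2.2.1 and deposited the FPKM of protein-coding genes, rounded to 2 decimals. The deposited columns are named means, but the labels give 1 sample per population. A further column holds the authors' fold changes and was not used.

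Of 21628 entries, 21 typed as non-coding in GENCODE M21 and 17 without a number in a population were left out, which left 21590. Of repeated symbols the entry with the higher FPKM was used, which among named genes concerned *Clcf1*, and *Tubb3* is not analysed here. A few genes of the lists are counted but not reported here by name. Calls followed the study's rule (5 FPKM and 1.5-fold), and the call function was tested on simulated data. No count model was run, since the values are FPKM. Depth was sought on low FPKM of genes with 1 transcript and 400 to 2500 nt of exon, less 200 nt: at the depths used, 64.2% of 201 GFP-high and 62.9% of 151 GFP-low values lay within 0.15 of a whole read. The next best depths were 54000000 reads for GFP-high (55.9%) and 32250000 for GFP-low cells (59.9%), so depths, and the read numbers and counting intervals that rest on them, are approximate. Since whole reads were not obtained for nearly all values, no counts were recovered. At most 0.854% of the 50-nt windows of any member occur in transcripts of other genes. Promoters are RefSeq sequences of GRCm38.p6, the build of mm10.

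Named genes are the members, the genes of 9 neurotrophic lists and 7 marker lists, and, for each member at 5 FPKM or more, its 2 nearest genes. The members and lists were chosen with earlier results of these data known. Alternatives were other FPKM minimums (1, 10, none, or 5 in both), 2-fold, pseudocounts of 1 and 0.1, division by the FPKM sum (TPM) and scaling GFP-low by the median ratio (0.973). Analyses used Python 3.11.15, numpy 2.4.6, pandas 2.3.3 and scipy 1.17.1.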

Additional observations from a re-analysis of the deposited data

How the results depend on the processing

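All 8 members kept their direction with pseudocounts of 1 and 0.1, on the TPM scale, which lowers every log2 ratio by 0.10, and with GFP-low scaled by the median ratio. Of 2 members called higher in GFP-high cells, 1 (*Ntf3*) remained when 5 FPKM was required in both populations and 1 (*Ntf3*) at a minimum of 10 FPKM. Of 4 called higher in GFP-low cells, 2 (*Ngfr* and *Ntrk2*) remained with 5 FPKM in both. The median log2 difference of the members was -1.12 instead of -0.98 with a pseudocount of 0.1. The 6 pathway genes called higher in GFP-high cells became 11 without an FPKM minimum and 3 at 2-fold. The 5 called higher in GFP-low cells became 3 with 5 FPKM in both, 8 at a minimum of 1 FPKM, 13 without a minimum and 2 at 2-fold. On the TPM scale the split of 6 against 5 became 4 against 6, with *Ret* and *Sorcs2* no longer called and *Furin* called higher in GFP-low cells. No paired analysis was possible because each population has 1 library, and no replicate could be left out for the same reason. Reads on 1 kb of transcript were fewest for *Gdnf* and the GFP-high value of *Ntrk3*, the last at about 22.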

Other observations

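Neurotrophic factors outside the neurotrophin and GDNF families were mostly at similar levels in the populations. Of 10 such genes, none was called in either direction, against 4.72% of all genes called higher in GFP-high and 4.44% called higher in GFP-low cells. *Clcf1*, which encodes a cytokine that activates the CNTF receptor, had 24.7 FPKM in GFP-high and 27.7 FPKM in GFP-low cells. *Manf*, a factor of the endoplasmic reticulum, had 162.9 and 163.7 FPKM, and the heparin-binding factor genes *Ptn* and *Mdk* had 84.5 and 68.4 FPKM, and 15.2 and 19.1 FPKM.

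Of 7 receptor genes for these factors, 1 was called, higher in GFP-low cells, as were 4.44% of all genes. *Il6st*, the gp130 subunit that CNTF and LIF receptors share, had 297.7 FPKM in GFP-low and 168.6 FPKM in GFP-high cells, 1.77 times higher in GFP-low cells. The ligand-specific subunit gene *Cntfr* was at 1.49 FPKM in GFP-low and 0.74 FPKM in GFP-high cells. *Met*, the receptor gene of hepatocyte growth factor, had 24.4 and 24.8 FPKM, while the ligand gene *Hgf* was at 0.10 FPKM or less in both.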
